A study of Homo sapiens with 12 samples.

Results

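The genes described here encode 10 secreted factors that act on blood vessels or circulate as hormones. They were the VEGF family members VEGFA, VEGFB, VEGFC and PGF, the vasoactive peptides ADM (adrenomedullin), APLN (apelin) and EDN1 (endothelin-1), and the secreted glycoproteins ANGPTL4, STC1 and STC2. They were chosen by name for their function, with earlier results of these data known. They make up 10 of the 23106 gene symbols counted in each library. The expression filter kept 9 of them, all but PGF.

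RNA was sequenced from RCC4, a single established human line of clear cell renal cell carcinoma (ccRCC). The line lacks functional VHL, the ubiquitin ligase subunit that marks HIF-1α and HIF-2α for destruction, so that its cells hold both proteins at normal oxygen unless these are knocked down. Every dish received 2 nM of siRNA pools and was harvested 48 h later. The control siRNA group had 2 nM of non-targeting siRNA. The HIF1A siRNA group had 1 nM against HIF1A with 1 nM of control siRNA, and the HIF2A siRNA group had 1 nM against EPAS1 (the gene for HIF-2α) with 1 nM of control siRNA. The double knockdown had 1 nM of each HIF siRNA and no control siRNA, and was deposited but left out of the study's own analysis. Each group had 3 replicates, which makes 12 libraries, and replicates were paired across groups by number.

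HIF-1α and HIF-2α are transcription factors that bind DNA as dimers with HIF-1β and switch on genes when oxygen is low, among them genes for secreted signals that recruit and dilate vessels. Clear cell kidney tumors commonly lose VHL and are known for dense vasculature, and drugs against VEGF signaling are used to treat them. VEGFA acts on receptors of endothelial cells, adrenomedullin and apelin relax vessels, and endothelin-1 constricts them. ANGPTL4 inhibits lipoprotein lipase, and the stanniocalcins STC1 and STC2 are glycoprotein hormones first known from calcium regulation in fish.

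Total counts per library ranged from 13263168 to 20451433. Levels are given as CPM, the count of a gene per 1000000 counts of its library after scaling of the library total. HIF1A mRNA averaged 96.7 ± 33.6 CPM (SD, n = 3) with control siRNA, where replicate 2 was low at 58.2 CPM, and 18.3 ± 3.62 CPM with HIF1A siRNA. It averaged 121 ± 13.3 CPM with HIF2A siRNA, which overlapped control (log2 fold change 0.37 ± 0.20, edgeR adjusted p = 0.931), and 28.7 ± 4.09 CPM in the double knockdown, and the 3 double knockdown libraries lay above the 3 HIF1A siRNA libraries. EPAS1 mRNA averaged 157 ± 16.9 CPM with control siRNA, 114 ± 17.7 with HIF1A siRNA, 10.1 ± 1.53 with HIF2A siRNA and 8.94 ± 2.16 in the double knockdown. Its libraries with HIF1A siRNA lay below control without overlap, at 62.3, 77.1 and 78.6% within pairs. That fall did not pass (log2 fold change -0.47 ± 0.15, edgeR adjusted p = 0.28), and its part in the changes of the members was not tested. All 8 renal epithelial and carcinoma markers were expressed, though not all were level across groups. Against control, edgeR called 2 of the 8 lower with HIF1A siRNA, where 1.14% of genes fell. They were CA9 (log2 fold change -3.64 ± 0.17, edgeR adjusted p = 1.29e-07) and NDUFA4L2 (-1.93 ± 0.22, edgeR adjusted p = 0.000352). In the double knockdown it called CA9, NDUFA4L2 and KRT19 lower and KRT18 higher, where 6.42% of genes fell and 3.86% rose. With HIF2A siRNA it called 0 of the 8. None of 5 endothelial markers had a median of 1 CPM or more, PECAM1 having no count in any library. Of 4 leukocyte markers, PTPRC and CD3E had no count in any library and only CD68, with a median of 54.4 CPM, reached a median of 1 CPM. Of 4 fibroblast and pericyte markers 3 did, COL1A1 (median 26.3 CPM), RGS5 (5.21) and PDGFRB (2.27), while DCN had at most 1 count. edgeR called none of these leukocyte or fibroblast and pericyte markers in any comparison, and their part in the results was not tested. In bulk RNA, fewer cells that make a transcript and less of it per cell cannot be told apart.

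The HIF dimers recognise the short DNA core ACGTG or GCGTG. The bases just upstream of the start sites are shown for 5 members that were lower in the double knockdown, because these windows hold the core. They are RefSeq promoters on GRCh38.p14, 250 bases each, written 5′ to 3′ on the strand of the gene, with cores on either strand in capitals (CACGT and CACGC are the reverse complements of ACGTG and GCGTG). EDN1 has 3 RefSeq start sites in the table, of which the first held 3 cores, the second none and the third, shown here, 1.
ADM promoter, chr11:10304823-10305072, plus strand: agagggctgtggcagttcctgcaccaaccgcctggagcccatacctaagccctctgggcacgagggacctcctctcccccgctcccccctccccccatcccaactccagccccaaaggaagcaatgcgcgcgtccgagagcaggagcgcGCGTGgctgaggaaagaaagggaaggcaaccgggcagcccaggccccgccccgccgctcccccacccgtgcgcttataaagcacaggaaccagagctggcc
APLN promoter, chrX:129654957-129655206, minus strand: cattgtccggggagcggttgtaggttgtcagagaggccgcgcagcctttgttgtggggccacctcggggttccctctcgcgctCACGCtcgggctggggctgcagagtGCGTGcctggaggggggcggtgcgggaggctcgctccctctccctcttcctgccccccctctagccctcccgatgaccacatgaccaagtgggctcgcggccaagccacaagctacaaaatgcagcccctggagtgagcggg
EDN1 promoter, chr6:12290111-12290360, plus strand: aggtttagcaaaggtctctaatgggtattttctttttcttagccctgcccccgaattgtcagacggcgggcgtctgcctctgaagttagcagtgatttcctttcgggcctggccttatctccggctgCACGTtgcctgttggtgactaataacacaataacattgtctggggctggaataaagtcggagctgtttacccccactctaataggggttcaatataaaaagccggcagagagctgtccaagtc
ANGPTL4 promoter, chr19:8363905-8364154, plus strand: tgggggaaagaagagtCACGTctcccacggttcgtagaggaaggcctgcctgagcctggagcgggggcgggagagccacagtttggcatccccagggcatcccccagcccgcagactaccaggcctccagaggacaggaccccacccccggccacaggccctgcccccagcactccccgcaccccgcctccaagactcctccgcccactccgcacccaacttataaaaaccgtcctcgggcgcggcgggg
STC2 promoter, chr5:173328415-173328664, minus strand: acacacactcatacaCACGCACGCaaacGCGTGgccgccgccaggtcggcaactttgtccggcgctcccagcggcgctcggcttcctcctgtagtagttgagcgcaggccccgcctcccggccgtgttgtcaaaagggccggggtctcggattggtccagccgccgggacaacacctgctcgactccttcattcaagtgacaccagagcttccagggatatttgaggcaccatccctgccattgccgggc
The STC2 window held 3 cores, of which 2 overlap by 1 base, and the APLN window held 2. The ADM, ANGPTL4 and EDN1 windows shown held 1 each. Promoters of 8 members were used, with 11 start sites in all, of which 9 held a core within 250 bases. These include PGF, which was not tested, with 2 start sites whose windows overlap and of which 1 held a core. The single windows of VEGFB and VEGFC, the members whose levels changed least, also held a core. Of all 35116 promoters in the table, 43.2% held at least 1 core, 18.5% ACGTG and 32.2% GCGTG. A match describes these letters only. VEGFA and STC1 are not shown and are not among the 8 members counted.

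VEGFA, the principal growth factor for endothelial cells, was lower with each HIF siRNA and lowest with both. Its levels were 249, 260 and 194 CPM in replicates 1, 2 and 3 with control siRNA. They were 130, 160 and 118 CPM with HIF1A siRNA, 157, 165 and 118 CPM with HIF2A siRNA, and 66.9, 66.5 and 55.7 CPM in the double knockdown. The control libraries were above all others, the groups with 1 HIF siRNA overlapped each other, and the double knockdown was below every other library. Against control siRNA, VEGFA fell to 58.0% with HIF1A siRNA (log2 fold change -0.79 ± 0.11, ± SE, edgeR adjusted p = 0.00248). Here and below, the edgeR adjusted p is from the quasi-likelihood test of edgeR with Benjamini-Hochberg adjustment over all genes tested, with replicates as a block, and the limit for a call is 0.05. With HIF2A siRNA VEGFA stood at 62.8% of control (-0.67 ± 0.11, edgeR adjusted p = 0.0538), just outside the limit. In the double knockdown it fell to 27.0% (-1.89 ± 0.10, edgeR adjusted p = 3.05e-08). The direct difference between the single siRNAs was -0.11 with a 95% interval from -0.36 to 0.13, so that the siRNAs were not separated for VEGFA. VEGFA shares 188 exonic bases with a gene on the opposite strand in GENCODE 44, and it is not stated whether counting used strand.

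The other VEGF family members did not pass the test in any of the comparisons. VEGFB, a ligand of VEGF receptor-1 linked to fatty acid handling and heart vessels, was at 62.0, 89.4 and 39.9 CPM with control siRNA and at 71.9, 92.4 and 40.1 CPM in the double knockdown. Replicate 3 was the lowest in all 4 groups, the order of replicates 1 and 2 varied, and the groups overlapped. The change in the double knockdown was 0.08 with a 95% interval from -0.25 to 0.41 on the log2 scale. VEGFC, the main growth factor of lymphatic vessels, lay between 30.0 and 49.1 CPM over all 12 libraries, and the 4 groups overlapped. Its change in the double knockdown was 0.14, with a 95% interval from -0.17 to 0.45. Both intervals lie above that of VEGFA in the double knockdown, which ran from -2.11 to -1.67. PGF, the placental growth factor, had 0 to 7 counts per library and could not be compared.

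**Figure D1:**
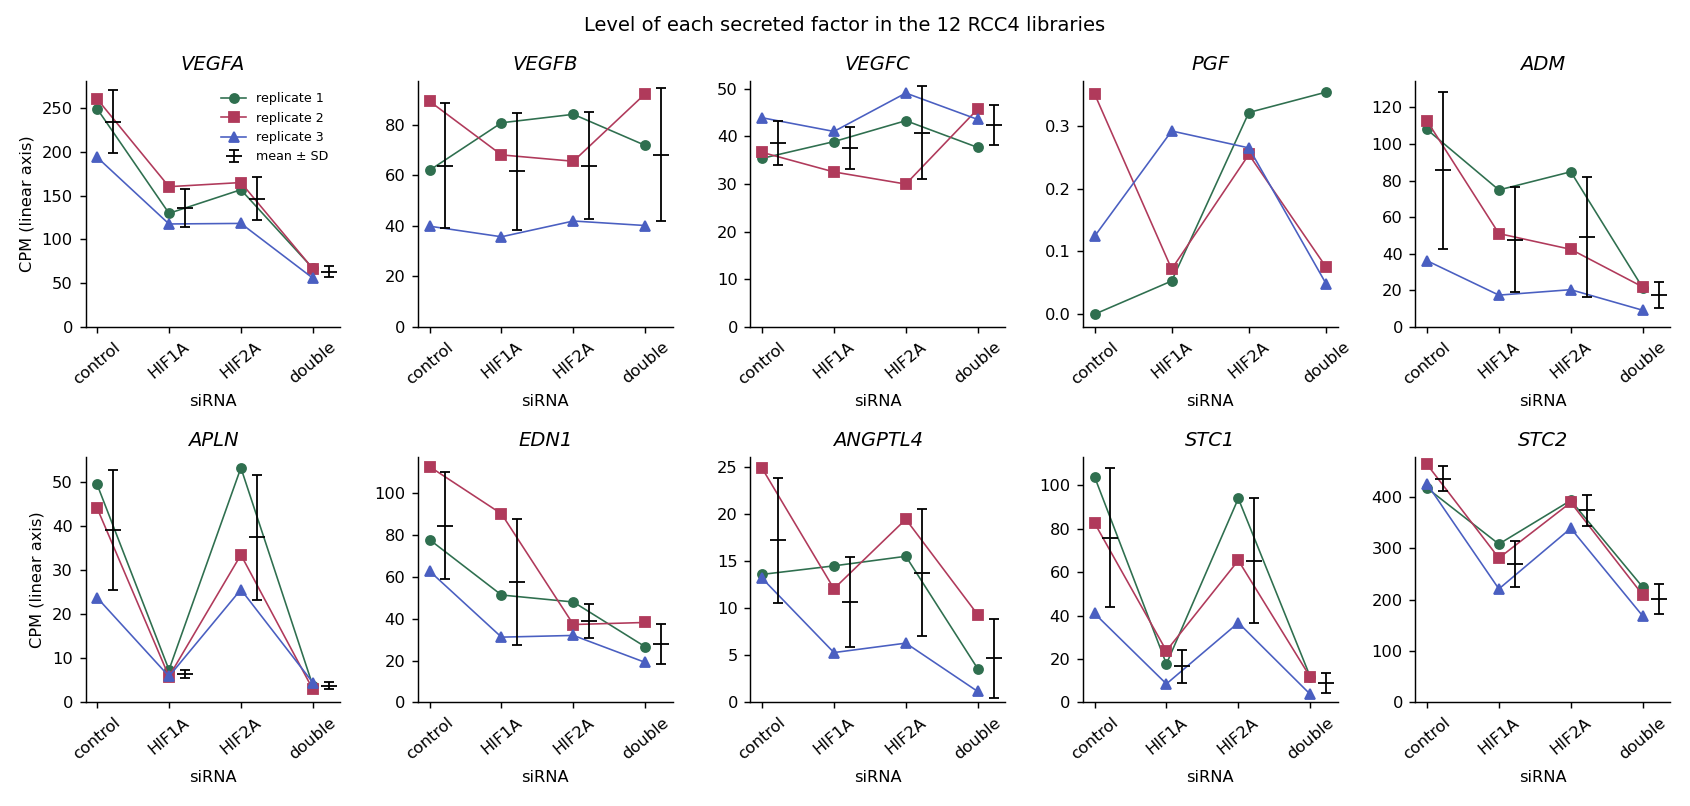
Level of each of the 10 genes (vertical axis, CPM on a linear axis scaled to each gene) in the 4 siRNA groups (horizontal axis), with lines joining replicates of the same number and black bars for the mean ± SD of 3 libraries (not drawn for PGF, which had 7 counts at most). VEGFA is highest with control siRNA and lowest in the double knockdown. APLN and STC1 drop wherever HIF1A siRNA was present, and VEGFB and VEGFC overlap in all groups.

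APLN and STC1 had the largest falls with HIF1A siRNA among the 9 genes tested. APLN, whose peptide relaxes vessels through the receptor APLNR, was at 49.5, 44.2 and 23.8 CPM in the control replicates. It was at 7.42, 5.90 and 5.94 CPM with HIF1A siRNA, at 53.3, 33.5 and 25.6 CPM with HIF2A siRNA, and at 3.84, 3.01 and 4.53 CPM in the double knockdown. The control and HIF2A siRNA libraries overlapped, and all libraries with HIF1A siRNA were well below both. APLN fell to 17.1% of control with HIF1A siRNA (log2 fold change -2.55 ± 0.19, edgeR adjusted p = 9.98e-06). With HIF2A siRNA its change was -0.06 with a 95% interval from -0.43 to 0.31 (edgeR adjusted p = 0.987). In the double knockdown it fell to 10.2% of control (-3.29 ± 0.25, edgeR adjusted p = 7.29e-07).

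STC1, a stanniocalcin found in many human tissues, was at 104, 82.7 and 41.0 CPM with control siRNA and at 17.7, 23.8 and 8.56 CPM with HIF1A siRNA. It was at 94.0, 65.5 and 36.7 CPM with HIF2A siRNA and at 11.9, 11.7 and 3.80 CPM in the double knockdown. In each group replicate 3 was lowest, while the groups with HIF1A siRNA did not overlap the groups without it. STC1 fell to 22.0% of control with HIF1A siRNA (-2.19 ± 0.17, edgeR adjusted p = 1.07e-05). The change with HIF2A siRNA was -0.20 with a 95% interval from -0.54 to 0.14 (edgeR adjusted p = 0.951). The double knockdown was at 11.6% of control (-3.10 ± 0.18, edgeR adjusted p = 4.46e-08).

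STC2, the paralog of STC1 and an inhibitor of the protease PAPP-A, was the most abundant of the 10 per transcript length. It was at 418, 464 and 426 CPM with control siRNA, 308, 281 and 221 CPM with HIF1A siRNA, 393, 389 and 339 CPM with HIF2A siRNA and 225, 210 and 169 CPM in the double knockdown. Control libraries were above all others, those with HIF2A siRNA came next, and the double knockdown overlapped HIF1A siRNA by 1 library. STC2 fell to 61.6% of control with HIF1A siRNA (-0.70 ± 0.12, edgeR adjusted p = 0.00845) and to 45.7% in the double knockdown (-1.13 ± 0.11, edgeR adjusted p = 7.41e-06). With HIF2A siRNA it was at 86.1% of control (-0.22 ± 0.12, edgeR adjusted p = 0.931).

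ADM, whose peptide dilates vessels and tightens the endothelial barrier, was at 108, 113 and 36.1 CPM in the control replicates. It was at 74.8, 51.0 and 17.3 CPM with HIF1A siRNA, at 84.8, 42.4 and 20.3 CPM with HIF2A siRNA, and at 21.4, 21.8 and 9.06 CPM in the double knockdown. Replicate 3 was the lowest of every group, so the groups with 1 HIF siRNA overlapped control while each pair was lower. ADM fell to 52.9% of control with HIF1A siRNA (-0.92 ± 0.17, edgeR adjusted p = 0.0146). The value with HIF2A siRNA was 55.3% (-0.86 ± 0.17, edgeR adjusted p = 0.118). In the double knockdown ADM fell to 21.1% of control (-2.25 ± 0.19, edgeR adjusted p = 2.50e-06).

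EDN1, the precursor of the constrictor endothelin-1, was at 77.6, 112 and 62.6 CPM with control siRNA and at 51.2, 89.9 and 31.1 CPM with HIF1A siRNA. It was at 47.9, 37.1 and 32.0 CPM with HIF2A siRNA and at 26.5, 38.1 and 19.1 CPM in the double knockdown. The HIF2A siRNA and double knockdown libraries were all below the control libraries, and the HIF1A siRNA libraries overlapped control. EDN1 was the member with the lowest estimate under HIF2A siRNA, at 48.3% of control (-1.05 ± 0.20, edgeR adjusted p = 0.11), which did not pass. The double knockdown fell to 32.8% of control (-1.61 ± 0.19, edgeR adjusted p = 7.87e-05). With HIF1A siRNA the value was 65.2% (-0.62 ± 0.20, edgeR adjusted p = 0.311).

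ANGPTL4, the inhibitor of lipoprotein lipase, had the lowest level per transcript length among the 9 tested with control siRNA. It was at 13.6, 24.9 and 13.2 CPM with control siRNA, 14.5, 12.1 and 5.30 CPM with HIF1A siRNA, 15.5, 19.5 and 6.31 CPM with HIF2A siRNA and 3.59, 9.33 and 1.17 CPM in the double knockdown. The double knockdown libraries were all below the control libraries, and the other groups overlapped. ANGPTL4 fell to 22.5% of control in the double knockdown (-2.15 ± 0.34, edgeR adjusted p = 0.000837). Its estimates with HIF1A siRNA (-0.76 ± 0.25, edgeR adjusted p = 0.347) and HIF2A siRNA (-0.41 ± 0.25, edgeR adjusted p = 0.94) did not pass.

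**Figure D2:**
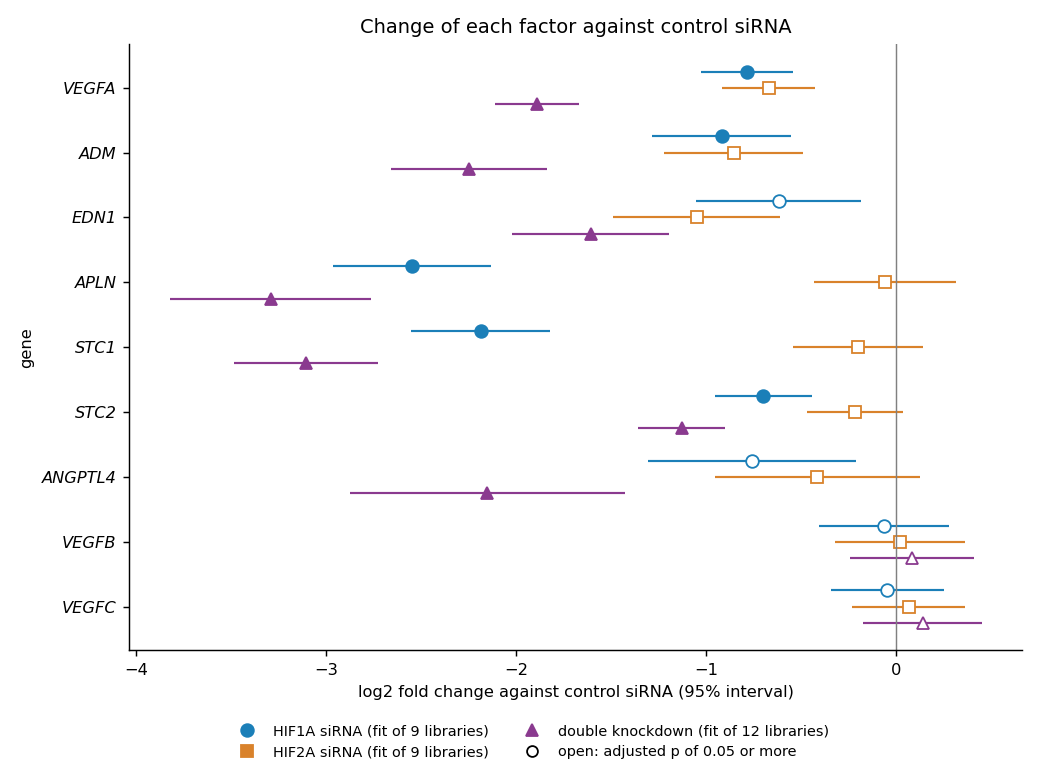
Log2 fold change of each tested gene against control siRNA with its 95% interval (horizontal axis) for HIF1A siRNA, HIF2A siRNA and the double knockdown, where filled symbols have an edgeR adjusted p under 0.05. With the double knockdown 7 genes are filled, with HIF1A siRNA 5 and with HIF2A siRNA none, and VEGFB and VEGFC sit near 0 throughout.

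With HIF1A siRNA against control, 5 of the 9 tested members fell (VEGFA, ADM, APLN, STC1 and STC2), where 1.14% of the 12830 genes tested fell. The libraries of 4 members lay below control without overlap, as those of 4.22% of genes, and 6 members were lower in all 3 pairs, as 15.4% of genes. Their median log2 fold change was -0.76 against 0.00 over all genes tested. The count was 1 without the replicate block (APLN), 2 without replicate 3 (APLN and STC1) and 3 without control replicate 3 or any 1 of the 3 HIF1A siRNA libraries, when ADM was lost with VEGFA (HIF1A siRNA replicate 1) or with STC2 (the other libraries). It was 6 without replicate 1 or control replicate 1, when ANGPTL4 passed, and without replicate 2 or HIF2A siRNA replicate 2, when EDN1 passed. Here and below, unless a share is printed, how many of all genes such an alternative fit called is not given. A change in these counts may therefore go with a change over all genes.

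With HIF2A siRNA, edgeR called none of the 9, where 0.0857% of genes fell. The libraries of 3 members (VEGFA, EDN1 and STC2) lay below control without overlap, as those of 2.88% of genes, and 5 members were lower in all 3 pairs, as 12.2% of genes. At an unadjusted p under 0.05, 3 members were lower (VEGFA, ADM and EDN1), as 2.88% of genes were, with ranks of 12, 24 and 23 among the 12830 genes ordered by p. DESeq2 called these 3, where it called 0.366% of genes lower. In a fit of all 12 libraries edgeR called 2 (VEGFA and EDN1), where 0.192% of genes fell, with estimates of -0.68 and -1.05. The members' median log2 fold change was -0.22, against 0.01 over all genes. The edgeR count was 2 without replicate 1 (ADM and EDN1), replicate 2 (VEGFA and EDN1) or control replicate 1 (VEGFA and ADM), and 1 without control replicate 2 (VEGFA).

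In the direct comparison of the single siRNAs, HIF1A siRNA left 2 members lower than HIF2A siRNA did, where 1.23% of genes were. The libraries of 3 members (APLN, STC1 and STC2) did not overlap, as those of 4.35% of genes, and 5 members were lower in all 3 pairs, as 19.3% of genes. They were APLN (-2.49 ± 0.19, edgeR adjusted p = 9.19e-06) and STC1 (-1.99 ± 0.17, edgeR adjusted p = 2.19e-05). STC2 missed the limit (-0.48 ± 0.12, edgeR adjusted p = 0.0722), but passed with DESeq2, without a filter, with all 12 libraries or only the 6 compared in the fit, with an adjusted p limit of 0.1 and more than 1.2-fold, and without control replicate 1 or 2. Without the replicate block APLN alone passed. The estimates for ADM, -0.06 with a 95% interval from -0.43 to 0.30, and ANGPTL4, -0.34 with an interval from -0.89 to 0.20, did not separate the siRNAs. EDN1 was the only member whose estimate was higher with HIF1A siRNA than with HIF2A siRNA, by 0.43 with an interval from -0.01 to 0.87 (edgeR adjusted p = 0.496).

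In the double knockdown 7 members fell against control, where 6.42% of the 13000 genes tested fell, with a median log2 fold change of -1.89 against 0.00 over all genes. All 7 were lower in all 3 pairs and did not overlap control, as 25.4% and 8.55% of genes were. The count was 7 in each fit that left out 1 library or 1 replicate number, and 4 without the replicate block (VEGFA, APLN, STC1 and STC2). These comparisons share the control libraries, so their values are set side by side and not compared as independent results.

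Adding HIF2A siRNA to HIF1A siRNA lowered 4 members, where 0.969% of genes fell. The libraries of 2 members (VEGFA and APLN) did not overlap, as those of 4.46% of genes. VEGFA fell to 46.6% of its level with HIF1A siRNA alone (-1.10 ± 0.10, edgeR adjusted p = 3.33e-05) and ADM to 39.6% (-1.34 ± 0.19, edgeR adjusted p = 0.00148). EDN1 fell by 0.99 ± 0.19 (edgeR adjusted p = 0.0184) and STC1 by 0.91 ± 0.18 (edgeR adjusted p = 0.0183) on the log2 scale. ANGPTL4 (-1.40 ± 0.34, edgeR adjusted p = 0.0585), STC2 (-0.43 ± 0.11, edgeR adjusted p = 0.0643) and APLN (-0.72 ± 0.26, edgeR adjusted p = 0.234) did not pass, though all 7 members named here were lower in all 3 pairs, as 18.8% of genes were. The edgeR count was 0 without the replicate block, where DESeq2 with the block called 6 (ANGPTL4 and STC2 as well) and 2.02% of genes, and it was 2 (VEGFA and ADM) without replicate 3, HIF1A siRNA replicate 2, or double knockdown replicate 1 or 3. EDN1 was also lost without replicate 1, HIF1A siRNA replicate 1 or double knockdown replicate 2, and STC1 without HIF1A siRNA replicate 3, while ANGPTL4 passed without replicate 2, control replicate 1 or 3, HIF2A siRNA replicate 1 or 2 or double knockdown replicate 2, and STC2 without control replicate 1 or HIF2A siRNA replicate 2. ANGPTL4 and STC2 also passed in edgeR without a filter, with only the 6 libraries compared in the fit, and with an adjusted p limit of 0.1 and more than 1.2-fold.

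Adding HIF1A siRNA to HIF2A siRNA lowered 6 members, where 3.22% of genes fell. The libraries of 4 members (VEGFA, APLN, STC1 and STC2) did not overlap, as those of 5.52% of genes, and 6 were lower in all 3 pairs, as 19.9% of genes. STC1 (-2.90 ± 0.18, edgeR adjusted p = 1.62e-07) and APLN (-3.22 ± 0.25, edgeR adjusted p = 1.19e-06) fell most. VEGFA fell to 43.3% of its level with HIF2A siRNA alone (-1.21 ± 0.10, edgeR adjusted p = 3.23e-06). ADM (-1.40 ± 0.19, edgeR adjusted p = 0.000398), STC2 (-0.90 ± 0.11, edgeR adjusted p = 9.76e-05) and ANGPTL4 (-1.71 ± 0.34, edgeR adjusted p = 0.0083) also fell. EDN1 did not pass (-0.55 ± 0.19, edgeR adjusted p = 0.143). ANGPTL4 was lost without replicate 1, replicate 3 or double knockdown replicate 1, and EDN1 passed without replicate 2 or HIF2A siRNA replicate 2.

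**Figure D3:**
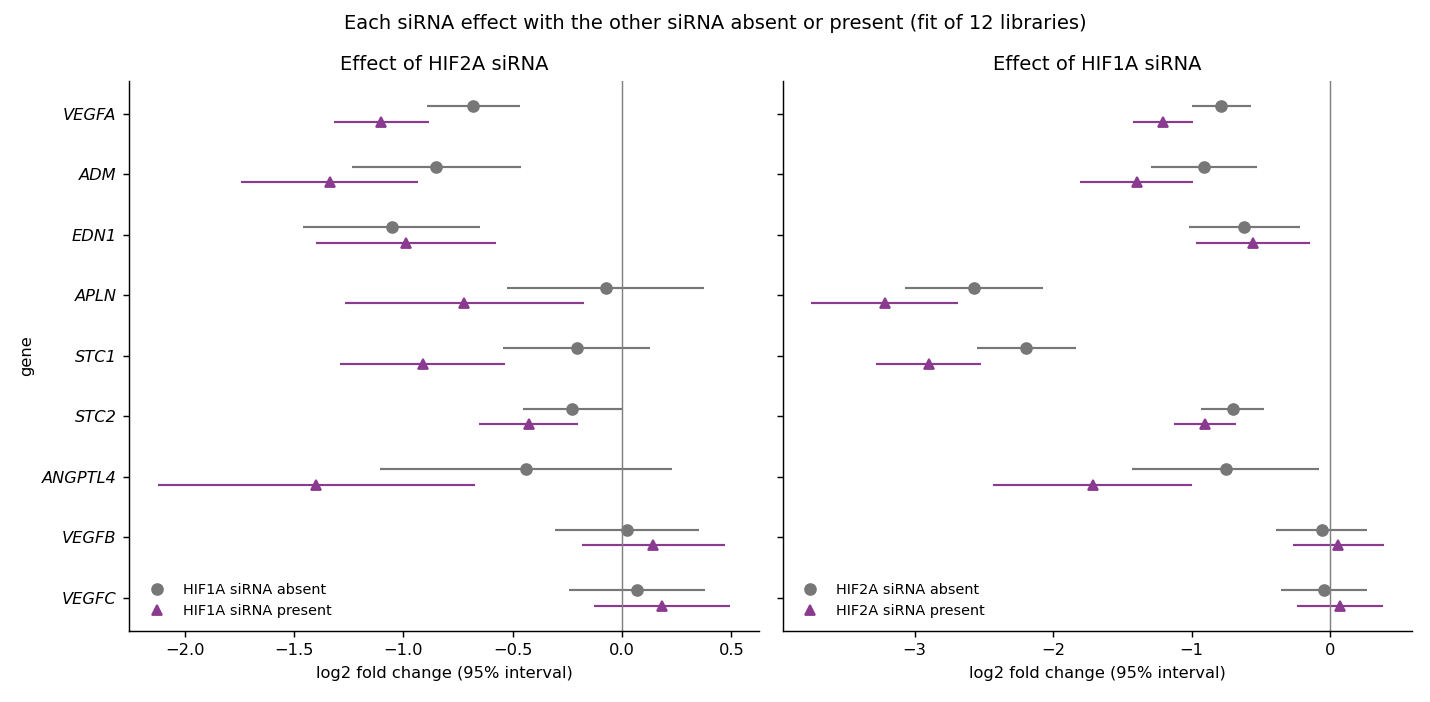
Log2 fold change with its 95% interval (horizontal axes) for HIF2A siRNA (left) and HIF1A siRNA (right) in the fit of 12 libraries, with the other HIF siRNA absent (grey circles) or present (purple triangles). For VEGFA, ADM, APLN, STC1, STC2 and ANGPTL4 the purple estimates lie further below 0 than the grey ones, and for EDN1 the pairs are nearly level.

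The interaction of the siRNAs measures how far the double knockdown departs from the product of the separate effects. No member passed (edgeR adjusted p = 0.999 for all 9 tested), nor did any of the 13000 genes, of which DESeq2 called 11. At an unadjusted p under 0.05, 2 members had a negative interaction, VEGFA (-0.42 ± 0.14, unadjusted p = 0.00965, edgeR) and STC1 (-0.71 ± 0.24, unadjusted p = 0.00953, edgeR), where 2.45% of genes in either direction reached that level. DESeq2 called none of the members. For VEGFA the product of the single effects was 32.8, 39.0 and 37.1% of control in replicates 1, 2 and 3, and the double knockdown stood at 27.0, 25.7 and 28.9%. For STC1 the products were 15.8, 23.1 and 19.6% and the double knockdown stood at 11.8, 14.7 and 10.3%. Both were below the product in all 3 pairs, as were APLN, ANGPTL4 and STC2, and as 8.26% of genes were. ADM and VEGFC were below it in 2 pairs, and EDN1 and VEGFB in 1.

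Levels between genes were compared as CPM per kb of the canonical transcript. With control siRNA, STC2 was highest at 102 ± 5.80 CPM per kb, followed by VEGFA at 65.0 ± 9.89, ADM at 57.3 ± 28.7, EDN1 at 41.4 ± 12.5 and VEGFB at 35.3 ± 13.7. STC1 followed at 19.6 ± 8.29, VEGFC at 17.1 ± 2.04, APLN at 12.1 ± 4.21 and ANGPTL4 at 9.20 ± 3.54 (SD, n = 3). STC2 was above VEGFA in every control library, and VEGFC was above APLN, whereas the other neighbours in this order overlapped. In the double knockdown VEGFB at 37.7 ± 14.6 CPM per kb came second to STC2 at 47.2 ± 6.83, and their ranges overlapped. VEGFA had come to 17.5 ± 1.76 CPM per kb, a level that overlapped that of VEGFC at 18.7 ± 1.85. APLN had the lowest mean of the 9 at 1.18 ± 0.24 CPM per kb, and its range overlapped those of STC1 and ANGPTL4.

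**Figure D4:**
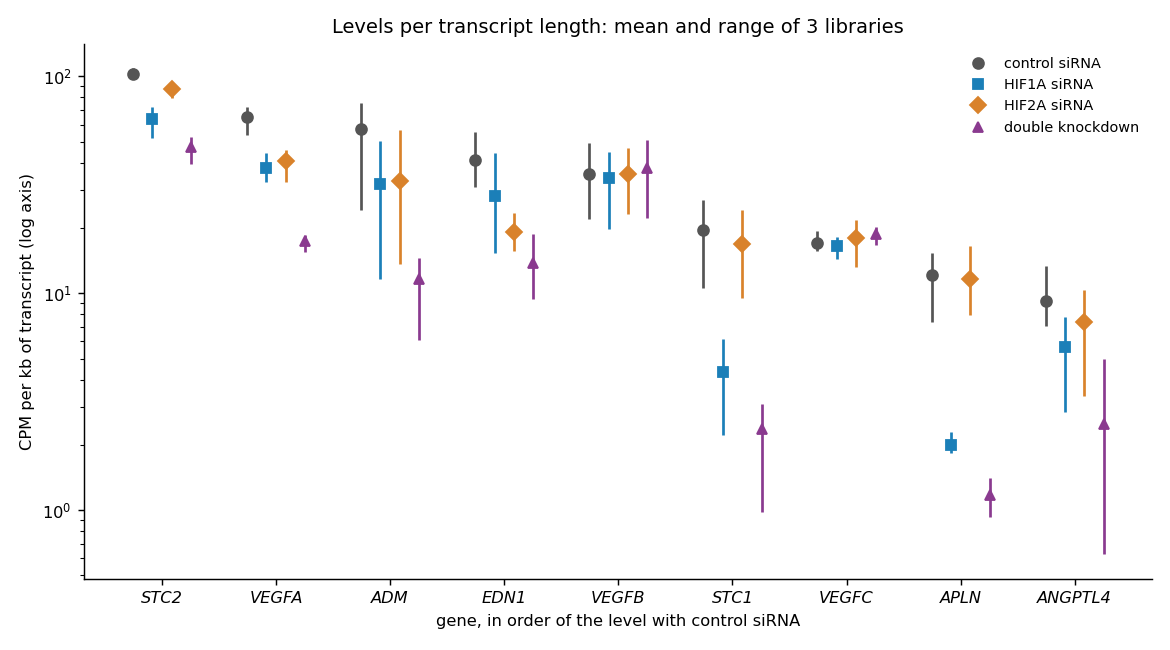
CPM per kb of canonical transcript (vertical log axis) for the 9 tested genes, ordered by their mean with control siRNA, where symbols are means and lines run from the lowest to the highest of 3 libraries. VEGFA is 2nd with control siRNA and meets VEGFC in the double knockdown, while VEGFB and VEGFC stay level.

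Levels also differed by replicate number. Of the variation of log2(CPM + 0.5) over the 12 libraries, siRNA took 94.5% for APLN, 93.4% for VEGFA, 89.8% for STC2 and 81.6% for STC1. It took 65.4% for EDN1, 53.9% for ANGPTL4 and 51.1% for ADM, against a median of 19.2% over all genes tested. For VEGFB replicate number took 87.5% and siRNA 1.19%, and for VEGFC 40.2% and 10.8%. The median share of replicate number over all genes tested was 46.4%, and VEGFB was the only tested member above it. Replicate 3 was the lowest of its group in all 4 groups for VEGFA, VEGFB, ADM, EDN1, ANGPTL4 and STC1, as for 20.5% of genes tested. ADM in replicate 3 stood at 27.5 to 41.9% of the mean of replicates 1 and 2, and STC1 at 32.2 to 46.1%. What set replicate 3 apart was not tested.

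**Figure D5:**
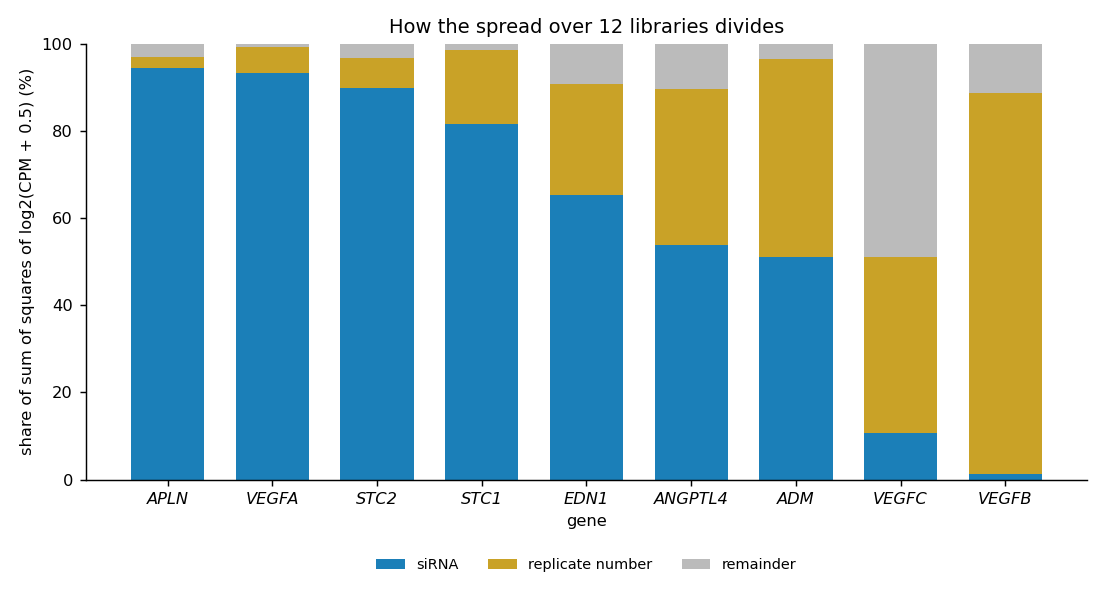
Share of the sum of squares of log2(CPM + 0.5) over 12 libraries (vertical axis, %) that went with siRNA, with replicate number and with the remainder, for the 9 tested genes. siRNA takes 94.5% for APLN at the left and 1.19% for VEGFB at the right, where replicate number takes 87.5%.

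The receptors through which these factors signal were mostly at or near 0 counts in RCC4 cells. Of 12 receptors and co-receptors, 3 passed the filter. The VEGF receptor genes FLT1, KDR and FLT4 had at most 4 counts in a library, the apelin receptor gene APLNR at most 1, and the endothelin receptor genes EDNRA and EDNRB had none. Of these 3, 1 fell in the double knockdown against control, where 6.42% of all genes fell. It was NRP2, a co-receptor for VEGF proteins, which went from 206 ± 104 to 134 ± 76.2 CPM (-0.64 ± 0.14, edgeR adjusted p = 0.00997). In the other comparisons edgeR called no receptor, where it called 0 to 4% of all genes in either direction. Of the paralogs of the members, 2 of 11 listed were tested and edgeR called none in any comparison, where it called 0 to 10.3% of all genes. DESeq2 called 1 of them between the single siRNAs, where it called 2.56% of genes. This was EDN2, for endothelin-2, named here after its values were seen, which edgeR placed higher with HIF1A siRNA than with HIF2A siRNA (1.77 ± 0.47, edgeR adjusted p = 0.119).

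Among 14 processing enzymes and binding partners, 11 were tested in the double knockdown, of which 3 fell against control, where 6.42% of all genes fell. PAM, which amidates adrenomedullin, went from 256 ± 62.6 to 152 ± 46.7 CPM (-0.78 ± 0.13, edgeR adjusted p = 0.00146). ECE1, which releases endothelin-1 from its precursor, went from 83.9 ± 26.2 to 50.4 ± 11.4 CPM (-0.71 ± 0.13, edgeR adjusted p = 0.00234). MME, a peptidase that degrades vasoactive peptides, fell by 1.15 ± 0.18 on the log2 scale (edgeR adjusted p = 0.000681). ECE1 also fell when HIF2A siRNA was added to HIF1A siRNA (-0.70 ± 0.13, edgeR adjusted p = 0.0127), PAM when HIF1A siRNA was added to HIF2A siRNA (-0.77 ± 0.13, edgeR adjusted p = 0.00292), and MME in both.

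Of 15 other secreted angiogenic factors, 12 were tested in the double knockdown and 2 fell against control, where 6.42% of all genes fell. They were FGF1 (-1.09 ± 0.11, edgeR adjusted p = 1.62e-05) and CXCL8, listed as IL8 (-1.07 ± 0.14, edgeR adjusted p = 0.00022). FGF1 also fell when HIF2A siRNA was added to HIF1A siRNA (-0.69 ± 0.11, edgeR adjusted p = 0.00462), where 0.969% of genes fell. Adding HIF1A siRNA to HIF2A siRNA lowered FGF1 (-0.63 ± 0.11, edgeR adjusted p = 0.00412) and CXCL8 (-0.69 ± 0.14, edgeR adjusted p = 0.0127), where 3.22% of genes fell. Of 8 secreted inhibitors of angiogenesis, 7 were tested in the double knockdown. Against control 2 fell and 1 rose, where 6.42% of all genes fell and 3.86% rose. THBS1, for thrombospondin-1, went from 3072 ± 497 to 1543 ± 267 CPM (-1.003 ± 0.147, edgeR adjusted p = 0.000458) and VASH1, for vasohibin-1, from 8.49 ± 3.64 to 4.86 ± 1.96 CPM (-0.78 ± 0.22, edgeR adjusted p = 0.0362). SEMA3F, for a semaphorin that binds NRP2, rose from 17.1 ± 4.31 to 27.3 ± 6.23 CPM (0.68 ± 0.16, edgeR adjusted p = 0.0147). Against HIF2A siRNA alone, 2 of the 7 inhibitors were lower in the double knockdown, where 3.22% of all genes fell. Against HIF1A siRNA alone edgeR called 0 of the 7. With the single siRNAs against control, edgeR called none of the 33 genes tested in these 5 lists, although 6 had an unadjusted p under 0.05 with HIF1A siRNA, as 7.33% of all genes did, and 7 with HIF2A siRNA, as 5.38% of all genes did. DESeq2 called 2 with HIF1A siRNA, PAM and THBS1, where it called 1.84% of all genes, and 0 with HIF2A siRNA, where it called 0.452%.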

How the data were processed

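Polyadenylated RNA from 12 dishes of RCC4 cells was sequenced from directional libraries. The authors trimmed adaptors (Trim Galore 0.3.3), aligned reads to hg19 (HISAT2 2.05), removed fragments without a unique position (Picard 2.0.1), counted fragments per gene (HTSeq 0.5.4p3) and deposited raw counts for 23106 symbols per library. Whether counting used strand is not given in the sources used here.

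Differential expression came from edgeR 4.0.16 (R 4.3.3) and its quasi-likelihood test on the deposited counts, with TMM normalization (factors from 0.980 to 1.02), edgeR's expression filter (minimum count 10, minimum total 15), a block for replicate number and p-values adjusted by Benjamini-Hochberg across the genes tested. The 9 libraries with control or single HIF siRNA were fitted together over 12830 genes, and comparisons with the double knockdown used all 12 libraries over 13000 genes. CPM used library totals scaled by the TMM factors, and a pseudocount of 0.5 for the split of the variation and for the ratios within pairs. Transcript lengths came from GENCODE 44 canonical transcripts.

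The study pairs its conditions by biological replicate. Deviations from the group means of libraries with the same number had correlations across genes from 0.0991 to 0.813 (18 pairs), and those with different numbers from -0.724 to 0.527 (36 pairs). All replicates came from 1 line, so p-values measure the spread between replicates of that line. No replicates agreed within sampling noise, and none were merged. Counts of the members ranged from 24 to 9243 per library, PGF apart. The script for the tests was checked on simulated counts with 200 changed genes.

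All 10 members are named, with HIF1A and EPAS1 as the check of the knockdowns, and from the lists of receptors, paralogs, processing enzymes, other angiogenic factors and inhibitors every gene with an adjusted p under 0.05 in a comparison, except 1 that is not reported here. The members and lists were chosen with earlier results of these data known. The alternatives were DESeq2 size factors, no replicate block, no filter or 10 counts required in each library, the DESeq2 1.42.0 test, other sets of libraries in the fit, the study's limits (adjusted p under 0.1 and more than 1.2-fold) and each library or replicate number left out.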

Additional observations from a re-analysis of the deposited data

How the results depend on the processing

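All 24 calls of members kept their direction in every alternative, and 10 kept their side of the limit in all of them. The other 14 were all lost without the replicate block, and some of them also without 1 library or replicate number. None was lost by another change of normalization, filter, test, limit or libraries in the fit. The pairing of libraries mattered most. Without the replicate block the number of members called was 1 with HIF1A siRNA against control, 0 with HIF2A siRNA, 1 between the single siRNAs, 4 for the double knockdown against control, 0 against HIF1A siRNA and 4 against HIF2A siRNA, and 0 for the interaction. The count with HIF2A siRNA against control was 0 in the fit described. It was 1 with adjusted p under 0.1 and more than 1.2-fold, 1 with DESeq2 size factors and 1 with at least 10 counts in every library. With all 12 libraries in the fit it was 2, and it was 3 without a filter and 3 with the DESeq2 test. The share of all genes called lower moved as well, from 0.0857% in the fit described to 0.156% at the limit of 0.1 and 1.2-fold. It was 0.192% with all 12 libraries and 0.366% with DESeq2. Shares of all genes are not given for the other alternatives, nor for most alternatives in the other comparisons, those with libraries left out included. The member counts there cannot be set against the genes as a whole. Under DESeq2 size factors no log2 fold change of a member changed sign. The largest median log2 fold change of all genes there was 0.01 in size. Scaling holds this median near 0 by construction, so it cannot show whether scaling mattered.

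With libraries or replicate numbers left out, the counts ran from 2 to 6 with HIF1A siRNA against control, 0 to 2 with HIF2A siRNA against control, 2 to 3 between the single siRNAs, 7 to 7 for the double knockdown against control, 2 to 6 against HIF1A siRNA, 5 to 7 against HIF2A siRNA and 0 to 0 for the interaction. The log2 fold changes that changed sign were all uncalled and did so only when libraries were left out. For VEGFB they ran from -0.28 to 0.15 (HIF1A siRNA against control), -0.20 to 0.25 (HIF2A siRNA against control), -0.22 to 0.0048 (between the single siRNAs), -0.071 to 0.24 (double knockdown against control), -0.013 to 0.30 (against HIF1A siRNA), -0.15 to 0.19 (against HIF2A siRNA) and -0.26 to 0.46 (interaction). For VEGFC they ran from -0.15 to 0.079 (HIF1A siRNA against control), -0.044 to 0.22 (HIF2A siRNA against control), -0.038 to 0.22 (double knockdown against control), -0.18 to 0.20 (against HIF2A siRNA) and -0.20 to 0.31 (interaction). The range for APLN with HIF2A siRNA against control was -0.23 to 0.11, for ADM between the single siRNAs -0.26 to 0.11, for ADM in the interaction -0.84 to 0.0066 and for EDN1 in the interaction -0.21 to 0.34. The causes were not tested. At 7 counts per library or fewer, no change of PGF could be detected.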
